A study of Mus musculus with 12 samples.

Results

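The genes described here are the nuclear genes for the subunits of the mitochondrial respiratory chain and of the ATP synthase. Members were the rows of the count table whose symbol begins with Ndufa, Ndufb, Ndufc, Ndufs, Ndufv, Uqcr, Cox4 to Cox8 or Atp5, with Cyc1 and Cycs added and 7 Ndufaf genes left out. This rule uses names and no measured value, and it found 79 of 23621 symbols. Sorted by symbol alone, they comprised 35 genes of complex I, 9 of complex III, 17 of complex IV, 17 of complex V (the ATP synthase) and Cycs, the gene for cytochrome c. Some products, such as those of Ndufa4, Cox7a2l and Atp5sl, are placed in another complex or known as joining or building factors, as given below. The count table held no row under the symbols Ndufv1, Ndufs8, Ndufb8 and Cox8a, nor under those of the mitochondrially encoded subunits, so these could not be analysed.

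The respiratory chain passes electrons from NADH through complex I, ubiquinone, complex III and cytochrome c to oxygen at complex IV, and pumps protons across the inner mitochondrial membrane on the way. The ATP synthase lets the protons back through a membrane ring and makes ATP in its F1 head. Mature neutrophils are known for living mostly on glycolysis with few mitochondria, whereas their precursors in the bone marrow hold more.

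The 12 RNA-seq libraries, 4 per group, were made from neutrophils of Balb/c females at 8 weeks of age. Low-density neutrophils (LDN) and high-density neutrophils (HDN) both came from the blood of mice that carried liver metastases, of breast cancer by the study's title. Naive neutrophils were bone marrow cells, labelled naive without further detail. Tissue and tumour change together between either blood group and Naive, and a date-like tag stands on the LDN and HDN columns alone, so these cannot be told apart there. Whether replicate libraries stem from different animals is not stated, so the p-values rest on the spread between libraries, which may be technical. The 3 comparisons share libraries, so their results are given side by side and not as support for each other.

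Total counts were 23181686 to 26456768 in LDN, 20049857 to 30044508 in HDN and 18113922 to 27741885 in Naive libraries. Levels are given as CPM, that is, counts scaled to library size with TMM factors, and the detection floor of 3 reads was worth 0.0954 to 0.153 CPM. HDN 4 stood high over the members, with a median deviation of 0.42 (log2) from its group mean against 0.089 over all genes. LDN 4 was at 0.20 against 0.057, and HDN 7 at -0.20 against -0.051. The 8 neutrophil markers summed to 163953 to 211166 CPM in LDN, 78367 to 127137 CPM in HDN and 138355 to 171623 CPM in Naive libraries, mostly from S100a8 and S100a9. Of these 8, 4 were higher and 1 lower in LDN than in HDN. The lower one was Csf3r, with a mean of 3962 CPM in LDN and 8660.4 CPM in HDN. Counts of marker genes are to be read against the shares of all genes called higher and lower. These were 26.0% and 20.3% for LDN against HDN, 30.0% and 29.9% for HDN against Naive, and 27.4% and 26.8% for LDN against Naive. The 8 granule genes of neutrophil precursors, Mpo and Elane among them, summed to 27902 to 40899 CPM in LDN, 1125 to 3197 CPM in HDN and 58438 to 63189 CPM in Naive libraries. The 6 genes of dividing cells, Mki67 among them, summed to 46.9 to 85.3 CPM in LDN, 3.65 to 6.30 CPM in HDN and 280.0 to 409 CPM in Naive libraries. All 8 precursor genes and all 6 dividing-cell genes were higher in LDN than in HDN and lower in HDN than in Naive, and in LDN against Naive 1 precursor gene was higher and 5 lower, and all 6 dividing-cell genes were lower. Monocyte markers (7 in the table) summed to 322 to 432 CPM in LDN, 280.3 to 556 CPM in HDN and 618 to 828 CPM in Naive libraries. Of these 7, 5 were higher and 1 lower in LDN than in HDN, 1 higher and 3 lower in HDN than in Naive, and 3 higher and 2 lower in LDN than in Naive. Fn1 averaged 176 CPM in LDN and 12.6 CPM in HDN, Ly6c2 63.97 CPM in LDN and 13.8 CPM in HDN, and Csf1r, the lower one, 122 CPM in LDN and 367 CPM in HDN. T cell markers (3 in the table) summed to 31.2 to 46.2 CPM in LDN, 3.24 to 16.7 CPM in HDN and 191 to 266 CPM in Naive libraries. Most of this was Cd3d, with means of 34.7 CPM in LDN, 8.11 CPM in HDN and 214 CPM in Naive. Cd3e ran the other way against Naive, at 0.718 CPM in LDN, 0.535 CPM in HDN and 0.0876 CPM in Naive. Of these 3, 1 was higher and 0 lower in LDN than in HDN. In each blood group against Naive, 1 was higher and 2 were lower. Each other marker list, for B cells, NK cells, platelets, red cells, eosinophils, basophils, dendritic cells, hepatocytes and epithelium, summed to at most 86.1 CPM in any library. The red cell genes Hba-a1 and Hbb-bs and the liver genes Alb and Ttr had no read in any group. The part of other cells and of maturation stage in the results below was not tested, and in bulk RNA fewer cells of a type and less RNA per cell cannot be told apart.

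Of the 79 members, 71 passed the filter on low counts, namely 33 of complex I, 9 of complex III, 11 of complex IV, 17 of complex V and Cycs. The other 8 had few or no reads. Cox7a1 had 56 reads over all 12 libraries, Cox4i2 had 17, Cox6a2 had 6, Ndufa4l2 and Cox8b had 1 each, and Ndufs5, Cox7b2 and Cox8c had 0. Ndufs5 is a regular subunit of complex I with a near-identical copy elsewhere in the genome, and the others are isoforms known from muscle, testis, lung or hypoxic cells.

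The mean summed level of these genes was higher in LDN than in HDN in each complex. Complex I summed to 1157 ± 102 CPM in LDN and 775 ± 147 CPM in HDN (SD, n = 4 each). Complex III summed to 453 ± 44.03 CPM in LDN and 338 ± 64.1 CPM in HDN, and complex IV to 829 ± 76.02 CPM in LDN and 636 ± 129.7 CPM in HDN (SD, n = 4 each). For the ATP synthase the sums were 1462 ± 93.5 CPM in LDN and 1011 ± 158 CPM in HDN (SD, n = 4 each). In complexes I and V every LDN library lay above every HDN library, and in complexes III and IV HDN 4 reached into the LDN range. As a share of raw counts, without TMM factors, all members took 0.346 ± 0.0323% in LDN, 0.300 ± 0.0450% in HDN and 0.324 ± 0.00915% in Naive neutrophils (SD, n = 4 each), and on that measure LDN and HDN overlapped.

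**Figure D1:**
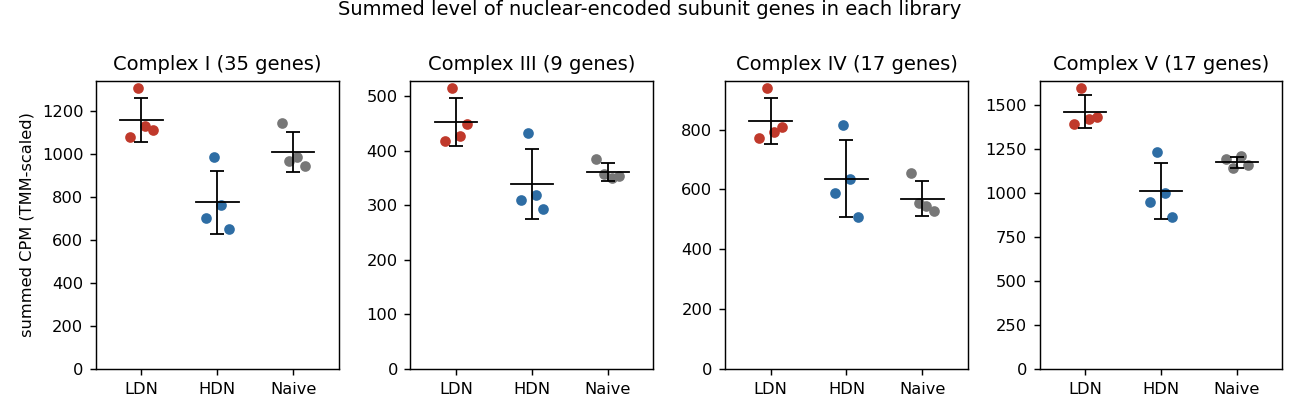
Each point is 1 library and the vertical axis is the summed CPM (TMM-scaled) of the nuclear-encoded genes of 1 complex. Bars show the mean and SD of 4 libraries. LDN means are highest in all 4 panels, and the highest HDN library reaches 985 CPM in complex I against 1078 CPM in the lowest LDN library.

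Gene by gene, 48 of the 71 tested members were higher in LDN than in HDN and 1 was lower at an adjusted p under 0.05 (edgeR, quasi-likelihood test, Benjamini-Hochberg over 10604 genes). Over all genes tested, 26.0% were higher and 20.3% lower. Cox6b2 passed the low-count filter only with its Naive libraries, where it is high, and without it 47 of 70 members were higher and 1 lower. All 4 LDN libraries lay above all 4 HDN libraries for 36 members, against 23.6% of all genes. The median log2 fold change was 0.55 for the members and 0.023 for all genes. Higher calls came to 23 of 33 in complex I, 5 of 9 in complex III, 7 of 11 in complex IV and 12 of 17 in complex V, with Cycs, and ran over 0.40 to 2.30 (log2). On leaving out each library the higher calls ran from 38 (without LDN 4) to 55 (without HDN 4), with 1 lower each time. Of all genes, 21.8% were higher without LDN 4 and 27.5% without HDN 4. With library totals in place of TMM factors 27 members were higher and 5 lower. The median of all genes was then -0.28 and that of the members 0.26, and of all genes 16.8% were higher and 34.7% lower. The authors' deposited table held 73 members with an adjusted p, of which 46 were higher and 1 lower. Its share over all genes is not given here. A DESeq2 fit of the same counts called 22.1% of all genes higher and 20.8% lower.

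**Figure D2:**
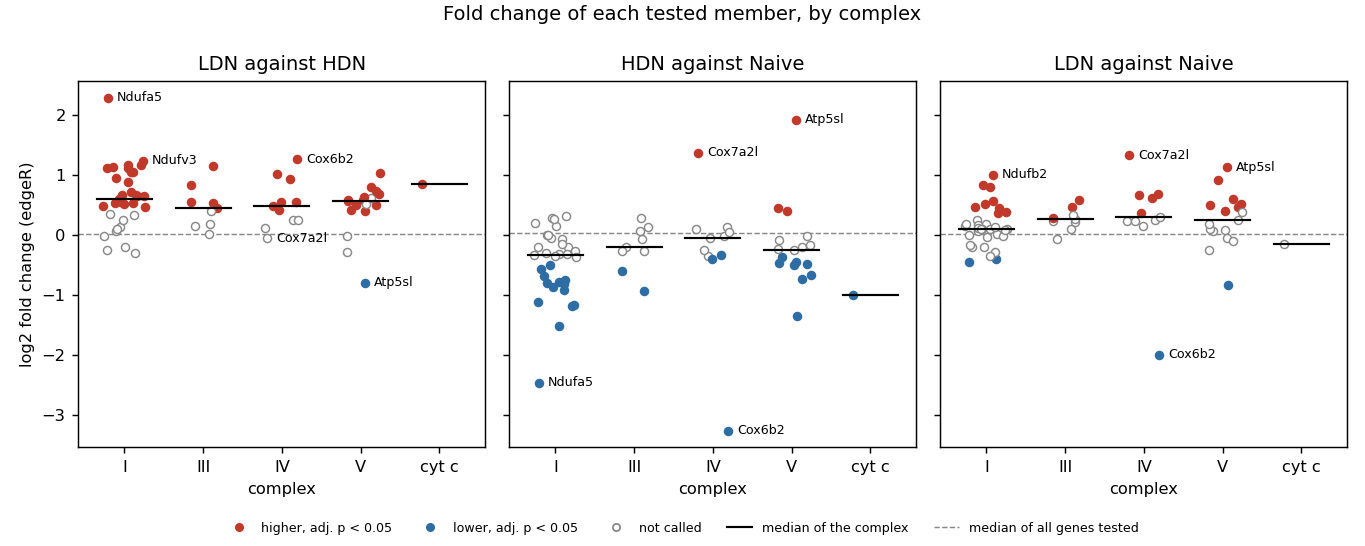
Each point is 1 tested member, placed by complex, with its log2 fold change (edgeR) in LDN against HDN, HDN against Naive and LDN against Naive. Filled points passed an adjusted p under 0.05, black lines are the median of each complex and the dashed line is the median of all genes tested. The complex I median is 0.60 in LDN against HDN, -0.34 in HDN against Naive and 0.11 in LDN against Naive.

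Complex I takes electrons from NADH in its N module and hands them to ubiquinone in its Q module. Ndufa5, a Q module subunit, had the largest fold change of the members in LDN against HDN. It was at 4.88, 4.47, 3.63 and 3.26 CPM in LDN libraries, 0.582, 1.43, 0.305 and 0.916 CPM in HDN libraries and 4.59, 3.62, 5.34 and 4.70 CPM in Naive libraries. All HDN libraries were below the others, while LDN and Naive overlapped. The log2 fold change was 2.30 ± 0.35 in LDN against HDN (± SE, as for every fold change, adjusted p = 0.000154), -2.46 ± 0.35 in HDN against Naive (adjusted p = 3.48e-05) and -0.16 ± 0.31 in LDN against Naive (adjusted p = 0.686). The gene is thinly covered in HDN, with 12, 45, 8 and 24 reads per library.

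Ndufv3, an accessory subunit of the N module, was at 58.5, 76.4, 61.2 and 61.5 CPM in LDN libraries, 22.8, 37.8, 27.2 and 21.03 CPM in HDN libraries and 70.8, 58.6, 57.4 and 56.2 CPM in Naive libraries. Again the HDN libraries alone were low. The log2 fold change was 1.24 ± 0.17 in LDN against HDN (adjusted p = 8.72e-05) and -1.16 ± 0.17 in HDN against Naive (adjusted p = 6.15e-05). Of the 7 N module genes tested, 6 were higher in LDN than in HDN, against 26.0% of all genes. Ndufs1, which carries iron-sulfur clusters, was not called. Ndufs4, known to be needed for a stable N module, averaged 38.8 ± 5.17 CPM in LDN, 18.7 ± 2.80 CPM in HDN and 35.2 ± 1.55 CPM in Naive neutrophils (SD, n = 4 each). Ndufs7, a Q module subunit that carries the last iron-sulfur cluster before ubiquinone, had a negative sign in LDN against HDN without a call (log2 fold change -0.25 ± 0.17, adjusted p = 0.257).

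Among the other complex I genes, Ndufa1, a small membrane subunit, averaged 53.8 ± 5.22 CPM in LDN, 24.3 ± 4.59 CPM in HDN and 38.7 ± 4.38 CPM in Naive neutrophils (SD, n = 4 each). Ndufc2, another membrane subunit, averaged 8.77 ± 1.89 CPM in LDN, 3.86 ± 1.36 CPM in HDN and 11.1 ± 0.863 CPM in Naive neutrophils (SD, n = 4 each). Both were higher in LDN than in HDN, with log2 fold changes of 1.15 ± 0.15 for Ndufa1 (adjusted p = 3.88e-05) and 1.18 ± 0.23 for Ndufc2 (adjusted p = 0.00115). Ndufb9, of the distal membrane arm, was not called, at 66.1, 81.2, 69.7 and 63.7 CPM in LDN libraries and 59.2, 84.7, 65.97 and 50.5 CPM in HDN libraries (log2 fold change 0.11 ± 0.16, adjusted p = 0.603). The LDN and HDN values of Ndufb9 overlapped, and its exons overlap another gene on the same strand.

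Complex III passes electrons from ubiquinol to cytochrome c. Uqcrb, known as its ubiquinone-binding protein, was at 13.3, 11.7, 14.3 and 10.9 CPM in LDN libraries, 5.62, 6.26, 5.79 and 4.92 CPM in HDN libraries and 10.1, 9.003, 11.999 and 11.8 CPM in Naive libraries. HDN libraries were again the lowest. It changed by 1.15 ± 0.15 (log2) in LDN against HDN (adjusted p = 5.94e-05) and -0.92 ± 0.15 in HDN against Naive (adjusted p = 0.000156). Cyc1, the heme-bearing cytochrome c1 of the complex, averaged 41.8 ± 4.07 CPM in LDN, 23.3 ± 5.998 CPM in HDN and 35.4 ± 2.66 CPM in Naive neutrophils (SD, n = 4 each), higher in LDN than in HDN (log2 fold change 0.84 ± 0.16, adjusted p = 0.000863).

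Cycs, which encodes the mobile carrier between complexes III and IV, was at 9.27, 8.76, 9.30 and 8.66 CPM in LDN libraries, 4.31, 6.07, 4.07 and 5.42 CPM in HDN libraries and 9.83, 9.04, 10.9 and 9.997 CPM in Naive libraries. HDN libraries were all below LDN and Naive, which overlapped. Cycs changed by 0.85 ± 0.16 (log2) in LDN against HDN (adjusted p = 0.00068) and -0.995 ± 0.16 in HDN against Naive (adjusted p = 9.26e-05). Near-identical copies of Cycs at 7 other places and of Uqcrb at 1 may share their reads.

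Complex IV is cytochrome c oxidase, and its nuclear subunits surround a core made in the mitochondrion. Cox6c, one of the small membrane subunits, was at 68.3, 82.1, 71.04 and 66.3 CPM in LDN libraries and 33.98, 46.3, 37.6 and 24.3 CPM in HDN libraries, with no overlap (log2 fold change 1.02 ± 0.17, adjusted p = 0.000323). Cox7b, known to be needed for assembly of the complex, averaged 40.6 ± 5.81 CPM in LDN and 21.1 ± 2.07 CPM in HDN (SD, n = 4 each, log2 fold change 0.95 ± 0.13, adjusted p = 5.66e-05). Cox4i1, the regulatory subunit, was at 200.4, 259.9, 207 and 217 CPM in LDN libraries and 137, 188, 159 and 120.1 CPM in HDN libraries (log2 fold change 0.55 ± 0.14, adjusted p = 0.00723). Its LDN libraries all lay above HDN, and the call ended with library totals. The 4 complex IV genes without a call were Cox5b, Cox6a1, Cox6b1 and Cox7a2l, among them Cox6b1 (log2 fold change 0.13 ± 0.15, adjusted p = 0.53).

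In the ATP synthase, the F1 head genes Atp5a1, Atp5b, Atp5c1, Atp5d and Atp5e were all higher in LDN than in HDN, by 0.40 to 0.59 (log2). Of all genes tested, 26.0% were higher. Atp5c1 was the only F1 gene to hold its call in all 21 other fits. Atp5b, whose product carries the catalytic sites, was at 339.6, 403, 333 and 362 CPM in LDN libraries and 252, 331, 254 and 230.0 CPM in HDN libraries. Every LDN library was above every HDN library (log2 fold change 0.43 ± 0.12, adjusted p = 0.0108). Atp5o, a subunit of the stalk that holds the head, was at 40.8, 53.3, 43.8 and 43.8 CPM in LDN libraries and 18.6, 30.6, 19.8 and 19.5 CPM in HDN libraries, again with no overlap. Its log2 fold change was the largest in complex V (log2 fold change 1.04 ± 0.16, adjusted p = 0.000176), and its exons overlap 2 other annotated genes on the same strand.

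**Figure D3:**
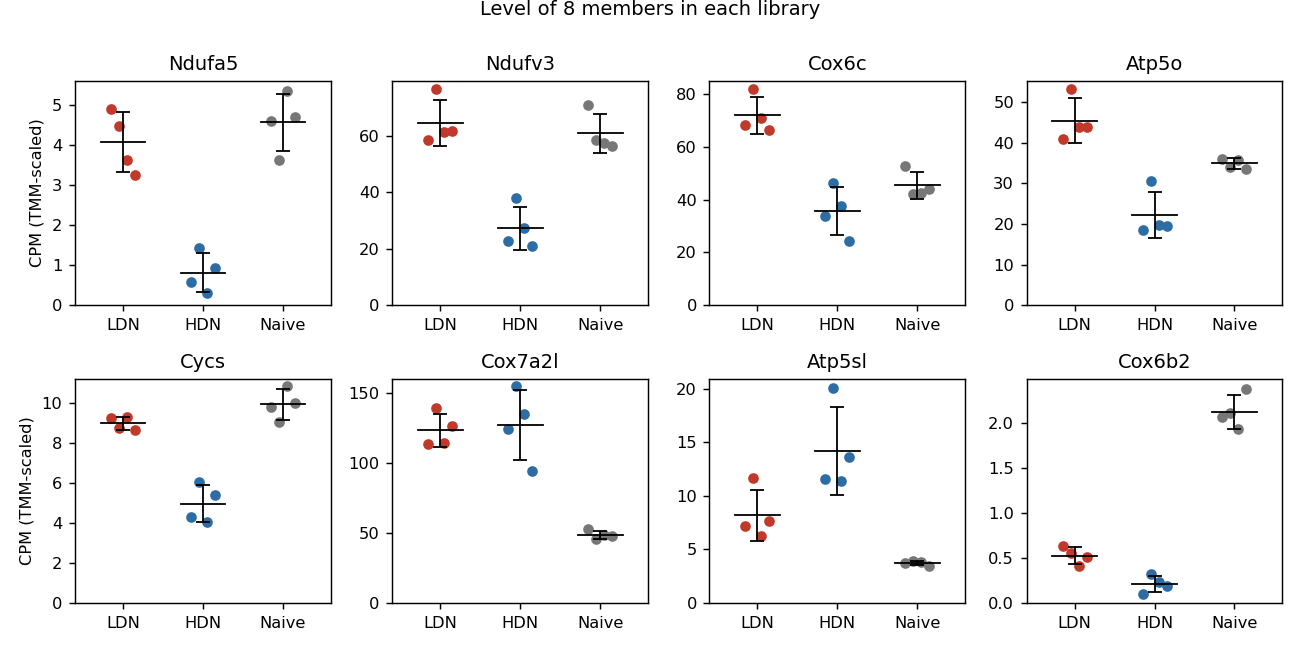
Each point is the CPM (TMM-scaled) of 1 gene in 1 library, with mean and SD bars over 4 libraries. Ndufa5, Ndufv3, Cox6c, Atp5o and Cycs have their lowest mean in HDN, Cox7a2l is at 94.2 CPM or more in all blood libraries and at 52.8 CPM or less in Naive, Atp5sl has its highest mean in HDN, and Cox6b2 in Naive.

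Promoters are shown for 3 members that were higher in LDN, because nuclear respiratory genes are known to share binding sites for a few factors. Of the 79 members, 64 matched a promoter in RefSeq on GRCm38.p6, in 70 windows that run from 250 bases before to 50 after the start. The core GCATGCGC of nuclear respiratory factor 1 was found, on either strand, in 10 of the 70 windows (14.3%) and in 2.71% of all 32851 windows. The ETS core CCGGAAG was in 12 (17.1%, against 8.86% of all), the YY1 motif AAGATGGC in 11 (15.7%, against 2.75%) and the estrogen-related receptor motif TCAAGGTCA in 1 (1.43%, against 0.423%), counted the same way. The stretches below are the 250 bases before the start of the gene with the largest fold change in LDN against HDN, in complex I, in complex V and for Cycs, among called genes whose stretch holds a motif, and for complexes III and IV there was none to print. Capitals mark the motif, that of the estrogen-related receptor in Atp5g3 and that of the respiratory factor in the others, which in Ndufa11 overlaps its own reverse complement.
Cycs: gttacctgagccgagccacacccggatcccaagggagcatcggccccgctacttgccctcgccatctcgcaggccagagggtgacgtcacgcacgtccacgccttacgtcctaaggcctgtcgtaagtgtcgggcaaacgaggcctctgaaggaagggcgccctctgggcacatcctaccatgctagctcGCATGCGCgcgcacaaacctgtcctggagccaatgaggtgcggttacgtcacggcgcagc
Ndufa11: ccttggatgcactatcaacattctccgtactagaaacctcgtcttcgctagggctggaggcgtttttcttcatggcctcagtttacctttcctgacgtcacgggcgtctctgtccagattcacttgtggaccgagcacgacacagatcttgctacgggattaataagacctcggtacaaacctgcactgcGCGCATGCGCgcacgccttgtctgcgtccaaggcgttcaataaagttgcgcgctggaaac
Atp5g3: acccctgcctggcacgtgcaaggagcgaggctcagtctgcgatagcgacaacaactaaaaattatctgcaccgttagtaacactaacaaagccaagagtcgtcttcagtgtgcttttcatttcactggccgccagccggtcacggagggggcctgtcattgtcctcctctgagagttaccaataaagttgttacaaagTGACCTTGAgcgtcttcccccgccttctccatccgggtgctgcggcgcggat

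These stretches lie at chr6:50566570-50566819 on the minus strand for Cycs, chr17:56717512-56717761 on the plus strand for Ndufa11 and chr2:73911327-73911576 on the minus strand for Atp5g3. Ndufa11, an accessory subunit in the membrane arm of complex I, was at 19.8, 27.9, 19.1 and 22.6 CPM in LDN libraries and 7.95, 15.6, 8.41 and 9.04 CPM in HDN libraries (log2 fold change 1.12 ± 0.22, adjusted p = 0.00103). Atp5g3, one of 3 genes for the ring subunit c of the ATP synthase, was at 74.1, 99.4, 71.6 and 80.2 CPM in LDN libraries and 41.8, 63.6, 42.8 and 37.7 CPM in HDN libraries (log2 fold change 0.81 ± 0.16, adjusted p = 0.00122). Neither gene's LDN and HDN libraries overlapped. The respiratory factor core was in 5 of 44 windows of genes higher in LDN and in 5 of 20 windows of genes without a call. A match describes the letters only, and binding was not measured.

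Between HDN and Naive, 28 of the 71 members were lower in HDN and 4 were higher, where 29.9% of all genes were lower and 30.0% higher. Without Cox6b2 27 of 70 were lower. All 4 HDN libraries lay below all 4 Naive libraries for 24 members (27.8% of all genes) and above them for 3 (25.5% of all genes). The median log2 fold change was -0.26 for the members and 0.039 for all genes. The share lower, 39.4%, was nearer to the background than the share higher, 5.63%. Lower calls came to 14 of 33 in complex I with 0 higher and 2 of 9 in complex III with 0 higher. They came to 3 of 11 in complex IV with 1 higher and 8 of 17 in complex V with 3 higher, and Cycs was lower. Sorted by symbol, these higher calls include Cox7a2l under complex IV and Atp5sl under complex V. Without HDN 4 the counts were 41 lower and 3 higher. The authors' deposited table held 73 members with an adjusted p, of which 28 were lower and 4 higher. Its share over all genes is not given here. A DESeq2 fit of the same counts called 26.7% of all genes lower and 25.5% higher.

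Within complex I, Ndufa5 and Ndufc2 had the largest changes in HDN against Naive. Ndufc2 was at 3.01, 5.75, 2.74 and 3.93 CPM in HDN libraries, against 10.97, 10.1, 12.2 and 11.3 CPM in Naive libraries, with no overlap (log2 fold change -1.52 ± 0.23, adjusted p = 7.28e-05). Of the 7 N module genes, Ndufv3, Ndufs4, Ndufs6 and Ndufa12 were lower and 3 were not called, where 29.9% of all genes were lower. Ndufa8, an intermembrane-space subunit (log2 fold change 0.29 ± 0.17, adjusted p = 0.17), and Ndufs7 (log2 fold change -0.20 ± 0.17, adjusted p = 0.322) were not called either.

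In the F1 head, Atp5b, Atp5c1 and Atp5e were lower in HDN than in Naive while Atp5d, the delta subunit, was higher (log2 fold change 0.41 ± 0.16, adjusted p = 0.039). The Atp5d call ended in 8 of 20 other fits, among them the one without HDN 4 (0.23, adjusted p = 0.125). Atp5o averaged 22.1 ± 5.67 CPM in HDN and 34.9 ± 1.25 CPM in Naive (SD, n = 4 each, log2 fold change -0.66 ± 0.16, adjusted p = 0.00284). Cox7a2, a complex IV subunit, was at 43.7, 63.3, 40.96 and 38.7 CPM in HDN libraries and 69.5, 57.6, 63.4 and 55.7 CPM in Naive libraries, where HDN 4 overlapped Naive (log2 fold change -0.40 ± 0.15, adjusted p = 0.0352). That call ended in 6 of 20 other fits. In complex III, Uqcrh, the hinge subunit, was not called (log2 fold change 0.28 ± 0.13, adjusted p = 0.081).

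Cox7a2l and Atp5sl differed in direction from most members in HDN against Naive. Cox7a2l resembles subunit 7a of complex IV and is known as a factor that joins complexes III and IV in supercomplexes. It was at 114, 139, 114 and 126 CPM in LDN libraries, 124, 155, 135 and 94.2 CPM in HDN libraries and 52.8, 46.01, 48.8 and 47.9 CPM in Naive libraries. All 8 blood libraries were above all Naive libraries, and LDN and HDN overlapped. The log2 fold change was 1.38 ± 0.14 in HDN against Naive (adjusted p = 1.7e-06), 1.34 ± 0.14 in LDN against Naive (adjusted p = 3.72e-06) and -0.044 ± 0.14 in LDN against HDN (adjusted p = 0.819), and 1 near-identical copy may share its reads.

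Atp5sl was the only member lower in LDN than in HDN. GENCODE vM21 names it Dmac2, and despite its old symbol the human protein is known as a factor in building the distal membrane arm of complex I. It was at 7.14, 11.7, 6.28 and 7.63 CPM in LDN libraries, 11.5, 20.1, 11.4 and 13.7 CPM in HDN libraries and 3.71, 3.91, 3.81 and 3.43 CPM in Naive libraries. LDN and HDN overlapped through LDN 4, and both blood groups were above Naive. The log2 fold change was -0.79 ± 0.22 in LDN against HDN (adjusted p = 0.0106), 1.93 ± 0.23 in HDN against Naive (adjusted p = 7.86e-06) and 1.14 ± 0.23 in LDN against Naive (adjusted p = 0.000938). Atp5l, the g subunit of the membrane part, averaged 5.66 ± 0.547 CPM in LDN, 6.83 ± 0.912 CPM in HDN and 4.95 ± 0.424 CPM in Naive neutrophils (SD, n = 4 each). It was higher in HDN than in Naive (log2 fold change 0.46 ± 0.16, adjusted p = 0.0209), a call lost in 5 of 20 other fits, and not called in LDN against HDN (log2 fold change -0.27 ± 0.16, adjusted p = 0.173), and 3 near-identical copies may share its reads.

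Between LDN and Naive, the direction depended on the scaling. With TMM, 24 of 71 members were higher in LDN and 4 were lower, against 27.4% and 26.8% of all genes. Without Cox6b2 3 of 70 were lower. All 4 LDN libraries lay above all 4 Naive libraries for 26 members (27.5% of all genes) and below them for 3 (27.8% of all genes). The share higher, 33.8%, was near the background, and the share lower was 5.63%. The median log2 fold change was 0.20 for the members and 0.015 for all genes. When the 20 most abundant genes were kept out of library sizes, 8 were higher and 9 lower. The median was then -0.091 for members and -0.27 for all genes, of which 17.6% were higher and 37.3% lower. With library totals 12 were higher and 7 lower, with medians of -0.030 for members and -0.22 for all genes. With upper-quartile scaling 14 were higher and 6 lower. The shares of all genes higher and lower were 18.9% and 34.2% with library totals and 21.2% and 32.5% with upper-quartile scaling. The members' median minus that of all genes was 0.18 with TMM, 0.18 without the 20 most abundant genes and 0.19 with library totals. A change of scaling moves all genes nearly alike, so these scalings could hardly have changed that gap and do not test it. The authors' deposited table held 74 members with an adjusted p, of which 20 were higher and 3 lower. Its share over all genes is not given here. A DESeq2 fit of the same counts called 21.7% of all genes higher and 25.1% lower.

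Higher calls in LDN against Naive came to 9 of 33 in complex I, 3 of 9 in complex III, 5 of 11 in complex IV and 7 of 17 in complex V. Over all genes tested 27.4% were higher, and complex I, at 27.3%, was at that share. Cycs was not called (log2 fold change -0.14 ± 0.15, adjusted p = 0.459). Ndufb2, a small membrane subunit of complex I, was at 11.5, 15.6, 10.8 and 11.7 CPM in LDN libraries and 6.84, 6.64, 5.64 and 5.45 CPM in Naive libraries, with no overlap (log2 fold change 1.01 ± 0.19, adjusted p = 0.000568), and its exons overlap another gene on the same strand. Ndufa8 was at 71.3, 99.5, 74.8 and 85.7 CPM in LDN libraries and 57.002, 44.5, 43.3 and 40.9 CPM in Naive libraries, again without overlap (log2 fold change 0.83 ± 0.17, adjusted p = 0.00114). In complex III the iron-sulfur protein Uqcrfs1 averaged 54.3 ± 6.26 CPM in LDN and 36.3 ± 1.86 CPM in Naive (SD, n = 4 each, log2 fold change 0.58 ± 0.14, adjusted p = 0.00291), and its call ended when the 20 most abundant genes were left out. Uqcrh (log2 fold change 0.47 ± 0.13, adjusted p = 0.00852) lost its call under 3 other scalings.

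Cox4i1 averaged 221 ± 26.8 CPM in LDN and 137 ± 13.6 CPM in Naive (SD, n = 4 each, log2 fold change 0.69 ± 0.14, adjusted p = 0.00116), and Atp5d averaged 75.7 ± 9.78 CPM in LDN and 39.99 ± 3.76 CPM in Naive (SD, n = 4 each, log2 fold change 0.92 ± 0.16, adjusted p = 0.000276). Both held their calls in all 20 other fits, as did Ndufb2, Ndufa8, Cox6c, Cox7b, Cox7a2l and Atp5sl. Some genes that were low in HDN were not called in LDN against Naive, with log2 fold changes of -0.34 ± 0.23 for Ndufc2 (adjusted p = 0.218), 0.24 ± 0.16 for Cyc1 (adjusted p = 0.221) and 0.38 ± 0.16 for Atp5o (adjusted p = 0.0559).

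Apart from Cox6b2, the members lower in LDN than in Naive were Ndufa4, Ndufs7 and Atp5s. Ndufa4, named for complex I but since placed with complex IV, was at 24.3, 29.4, 26.9 and 28.2 CPM in LDN libraries, 18.03, 27.02, 21.3 and 19.3 CPM in HDN libraries and 34.3, 33.1, 39.96 and 35.9 CPM in Naive libraries. Naive libraries stood above both blood groups (-0.40 ± 0.14 in LDN against Naive, adjusted p = 0.0276), and without Naive 3 or Naive 4 the call ended. Cox6b2, a testis form of complex IV subunit 6b, was at 0.626, 0.554, 0.409 and 0.512 CPM in LDN libraries, 0.0969, 0.318, 0.228 and 0.191 CPM in HDN libraries and 2.06, 2.10, 1.93 and 2.37 CPM in Naive libraries. HDN 3 was under the floor with 2 reads. Cox6b2 passed the filter only with its Naive libraries and drops out when LDN and HDN are fitted alone. Its values are given with no test, and its calls are not read as a result. Ndufs7 (log2 fold change -0.45 ± 0.17, adjusted p = 0.04) lost its call in 7 of 20 other fits. Atp5s, a coupling factor, averaged 0.546 ± 0.0974 CPM in LDN and 0.964 ± 0.326 CPM in Naive (SD, n = 4 each, log2 fold change -0.82 ± 0.30, adjusted p = 0.0317) and lost its call in 5.

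Levels of different members were compared per kilobase of the longest principal transcript in GENCODE vM21 (CPM per kb). In LDN the means of the 71 tested members lay between 0.217 for Atp5g1 and 289 for Cox4i1. The highest of complexes I, III, IV and V in LDN were Ndufb7 at 143 ± 14.99, Uqcrh at 175 ± 14.2, Cox4i1 at 289 ± 35.1 and Atp5b at 188 ± 16.6 CPM per kb (SD, n = 4 each). Among the 3 genes for the same c subunit, Atp5g3 was at 112 ± 17.4 CPM per kb in LDN, 64.3 ± 16.1 in HDN and 73.9 ± 3.47 in Naive neutrophils (SD, n = 4 each). Atp5g2 was at 1.79 ± 0.491 CPM per kb in LDN, 1.15 ± 0.334 in HDN and 1.93 ± 0.263 in Naive, and Atp5g1 at 0.217 ± 0.0570 in LDN, 0.214 ± 0.110 in HDN and 0.257 ± 0.0513 in Naive (SD, n = 4 each). The length used was 4715 bases for Atp5g1, 731 for Atp5g2 and 723 for Atp5g3, so the low place of Atp5g1 per kb depends on that choice. In plain CPM, Atp5g1 averaged 1.02 and Atp5g2 1.31 in LDN. Atp5g1 has 2 near-identical copies elsewhere, Atp5g2 has 1 and Atp5g3 has 0. The treatment of shared reads in the counting is not stated, so levels of Atp5g1 and Atp5g2 are uncertain for that reason too. Of the isoform pairs, Cox6b1 stood in LDN at 156 ± 14.4 and Cox6b2 at 0.898 ± 0.155 CPM per kb, and Cox7a2 at 104 ± 8.25 and Cox7a1 at 0.826 ± 0.247 CPM per kb (SD, n = 4 each).

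Copies were looked for among GENCODE vM21 transcripts, and 16 of the 71 tested members shared at least 100 bases at 98% identity with a gene elsewhere. Of the 55 members with no copy, 41 were higher in LDN than in HDN and 1 lower, with a median log2 fold change of 0.55. Over all genes tested, 26.0% were higher and 20.3% lower. Of the 16 with a copy, 7 were higher and 0 lower, with a median of 0.37. In HDN against Naive, 23 of the 55 and 5 of the 16 were lower, against 29.9% of all genes. The 5 of 16 are near that share. Exons of 24 of the 71 overlap a gene on the opposite strand, and whether the counting used strand is not stated.

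Other genes of oxidative phosphorylation were counted in small lists, to be read against the shares of all genes called higher and lower, 26.0% and 20.3% for LDN against HDN, 30.0% and 29.9% for HDN against Naive, and 27.4% and 26.8% for LDN against Naive. Complex II, which feeds electrons from succinate and was outside the rule, had 2 of 4 genes higher and 1 lower in LDN against HDN, and in HDN against Naive and LDN against Naive it had 3 of 4 higher and 0 lower. Sdha, its flavoprotein, averaged 118 ± 2.06 CPM in LDN, 152 ± 11.8 CPM in HDN and 79.5 ± 9.32 CPM in Naive neutrophils (SD, n = 4 each). It was lower in LDN than in HDN (log2 fold change -0.37 ± 0.11, adjusted p = 0.0128) and higher in HDN than in Naive (log2 fold change 0.94 ± 0.11, adjusted p = 5.09e-06). Assembly factors of complex I had 2 of 11 higher and 1 lower in LDN against HDN. They had 1 higher and 3 lower in HDN against Naive, and 1 higher and 1 lower in LDN against Naive. The 1 lower in LDN against HDN, Ndufaf6, passed the low-count filter with 0 LDN libraries at its cutoff. Assembly factors of complex III had 1 of 4 higher and 0 lower in LDN against HDN. They had 1 higher and 2 lower in HDN against Naive, and 0 called in LDN against Naive. The 1 higher in HDN against Naive, Ttc19, passed the filter with 0 Naive libraries at its cutoff. Neither of these calls is read as a result. Bcs1l, which inserts the iron-sulfur protein into complex III, averaged 11.7 ± 1.87 CPM in LDN, 3.91 ± 1.76 CPM in HDN and 11.7 ± 1.15 CPM in Naive neutrophils (SD, n = 4 each), higher in LDN than in HDN (log2 fold change 1.58 ± 0.28, adjusted p = 0.00052). Assembly factors of complex IV had 0 of 17 higher and 1 lower in LDN against HDN, and 2 higher and 6 lower both in HDN against Naive and in LDN against Naive. Of 4 assembly and inhibitor genes of the ATP synthase, 2 were higher in LDN than in HDN and 0 lower, with Atpif1, the inhibitor of its reverse reaction, among the higher ones (log2 fold change 0.78 ± 0.13, adjusted p = 0.000244). Of 5 other genes that feed electrons to ubiquinone, 1 was higher in LDN than in HDN (Etfa, log2 fold change 0.79 ± 0.21, adjusted p = 0.00692) and 0 lower.

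**Figure D4:**
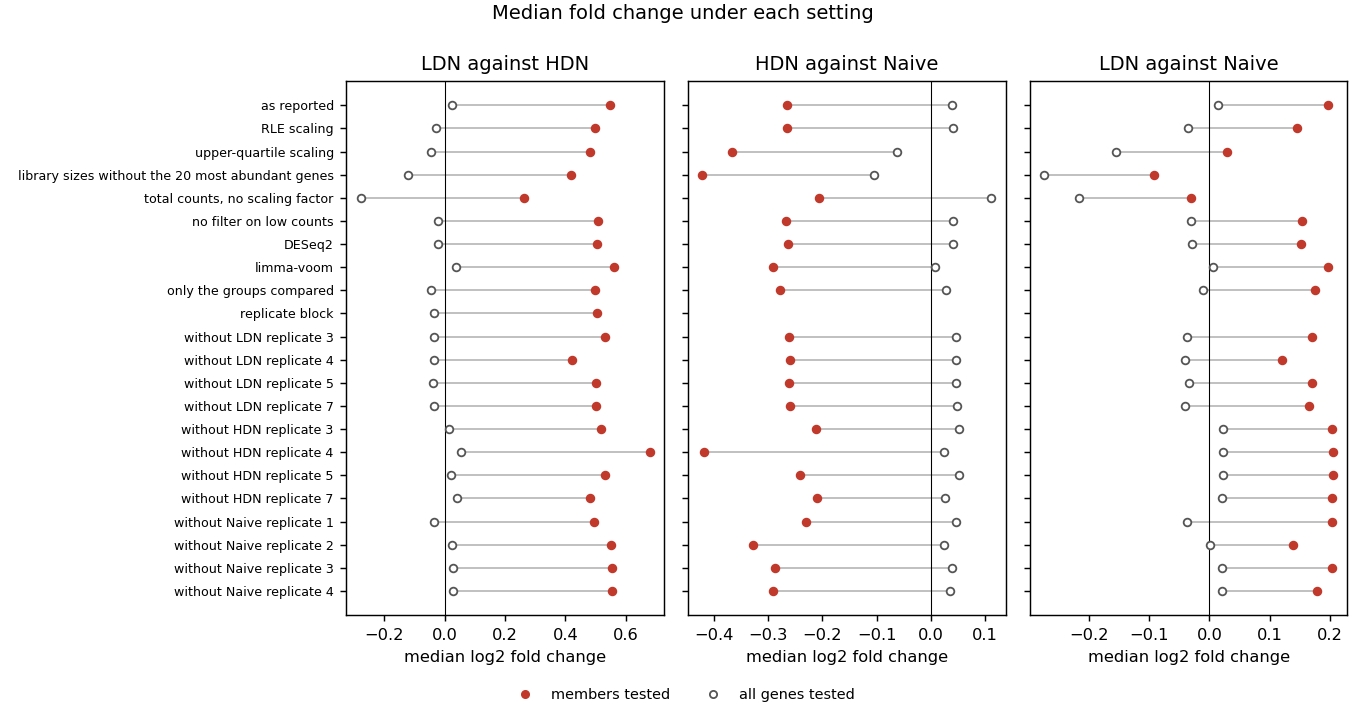
Each row is 1 way of processing and the horizontal axis is the median log2 fold change, filled for the tested members and open for all genes tested. The gap between both medians keeps its sign in every row, while both medians shift together with the scaling. It spans 0.44 to 0.62 in LDN against HDN, -0.44 to -0.23 in HDN against Naive and 0.14 to 0.24 in LDN against Naive. Rows that differ only in scaling move all genes nearly alike, so they do not test this gap.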

How the data were processed

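The authors deposited a table of raw counts for 23621 gene symbols in 12 libraries and 3 tables of their own DESeq2 comparisons, which per the file headers hold a mean normalized signal, log2 fold changes with their errors, a test statistic (a score) and raw and adjusted p-values. Per the labels' protocols, stranded libraries were made from polyadenylated RNA. The submitters' processing notes name CASAVA 1.8.2, Trimmomatic, STAR and DESeq2 1.16.1. The build, the annotation and the strand setting were not given in the sources used here.

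Counts were tested with edgeR 4.0.16 in R 4.3.3 (TMM, filterByExpr with a minimum count of 10, robust quasi-likelihood fit to all 12 libraries by group, adjusted p under 0.05). The 10604 tested genes held 99.967% of counts. Scaling factors were 0.825 to 0.927 in LDN, 1.01 to 1.28 in HDN and 0.943 to 1.09 in Naive libraries. SDs and SEs reflect the spread between libraries. The floor of 3 reads covers counting error only, since reads without molecular identifiers are not independent molecules. Members were counted and their median set beside all genes, with no test over the list. Members and lists were chosen with earlier results of these data known. Named genes were the 2 largest called changes per complex and comparison with a mean log2 CPM of 1 or more, core subunits, c subunit genes, tissue isoforms, members called against the rest of their complex and members under the filter. Ndufa1, Ndufs4, Ndufb9, Cox6b1, Ndufa11, Slc25a5 and Nrf1 were added after their values were seen. A result that this rule calls for is not reported here.

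LDN and HDN share the replicate numbers of the labels. Deviations from group means correlated at 0.31 to 0.76 between libraries of the same number and at -0.61 to 0.41 between others. These ranges overlap, so pairing is not established. The numbers were taken as pairs only in the replicate block, and the fold changes, SEs and p-values printed come from the fit without pairs. Alternatives were other scalings, no filter, DESeq2 1.42.0, limma-voom (limma 3.58.1), the groups compared alone, the replicate block and leaving out each library. Copies were found with blastn 2.17.0. The edgeR step was tested on simulated counts.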

Additional observations from a re-analysis of the deposited data

Results flagged for a closer look

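A single library lay far from the other 3 of its group, past Dixon's 95% critical value for 4 samples, in 10 of 123 groups checked, where chance gives about 1 in 20. In HDN 4, which accounted for 6 of the 10, Cyc1 at 32.2 CPM (others 19.3 to 21.4), Cox5a at 65.1 CPM (others 40.4 to 44.2) and Cox5b at 50.4 CPM (others 34.2 to 34.9) stood high. So did Atp5a1 at 262 CPM (others 179.6 to 192), Atp5g1 at 1.78 CPM (others 0.647 to 0.840) and Atp5o at 30.6 CPM (others 18.6 to 19.8). Ndufv3 was at 76.4 CPM in LDN 4 (others 58.5 to 61.5). Ndufv3 was at 70.8 CPM in Naive 1 (others 56.2 to 58.6). Atp5b was at 355 CPM in Naive 3 (others 335 to 338). Atp5d was at 45.6 CPM in Naive 1 (others 37.6 to 38.96). The genes of 1 library are not independent of each other.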

How the results depend on the processing

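Of 48 members higher in LDN than in HDN, 27 held their call in all 21 other fits that tested them. Of 28 lower in HDN than in Naive 21 did, and of 24 higher in LDN than in Naive 8 did, both over 20 fits. With library totals, LDN against HDN gave 27 higher and 5 lower (median 0.26), and LDN against Naive 12 higher, 7 lower and a median of -0.030. Without the 20 most abundant genes, LDN against Naive gave 8 higher, 9 lower and a median of -0.091, and HDN against Naive 2 higher. Upper-quartile scaling gave 2 higher in HDN against Naive and 14 in LDN against Naive. The cause of these shifts was not tested. Of all genes, 23.6% were higher in HDN against Naive without the 20 most abundant genes. With upper-quartile scaling 25.7% were higher in HDN against Naive and 21.2% in LDN against Naive. The other shares stand with their counts above. Leaving out each library gave 2 to 5 higher in HDN against Naive, 2 without Naive 2 or Naive 4, and 2 to 4 lower in LDN against Naive, 2 without LDN 3, Naive 2, Naive 3 or Naive 4. HDN against Naive gave 21 to 41 lower, the most without HDN 4, and LDN against Naive 16 to 27 higher, the fewest without LDN 5 or Naive 2. LDN against HDN gave 38 to 55 higher, the fewest without LDN 4. Over these fits, the share of all genes called higher was 21.5% to 27.5% in LDN against HDN. It was 26.5% to 30.6% in HDN against Naive and 22.9% to 29.3% in LDN against Naive. The share called lower was 27.5% to 31.2% in HDN against Naive and 23.9% to 29.1% in LDN against Naive. With the replicate block over the 8 LDN and HDN libraries, 50 of 70 members were higher and 1 lower, 47 of the 48 calls among them. Of all genes, 28.7% were higher and 28.5% lower in that fit. Of members not called, 13 of 22 changed sign in 1 or more fits in LDN against HDN, 14 of 39 in HDN against Naive and 31 of 43 in LDN against Naive. Of called members 1 did, Uqcrc2 in LDN against Naive, at -0.00050 without the 20 most abundant genes. No member was called with the other sign. Genes named for their values that took the other sign were, in LDN against HDN, Ndufb9 at -0.024 without the 20 most abundant genes, at -0.18 with library totals and between -0.022 and 0.26 on leaving out a library, Cox6b1 at -0.00257 and -0.16 in those scalings, and Cox7a2l between -0.16 and 0.067 on leaving out a library. Cyc1 in LDN against Naive was at -0.045 without the 20 most abundant genes. Depth limits the genes near 1 CPM, such as Cox6b2, Atp5s, Atp5g1, and Ndufa5 in HDN.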

Other observations

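Counts of carriers that move the substrates and product of the ATP synthase are read against the shares of all genes called higher and lower, 26.0% and 20.3% for LDN against HDN, 30.0% and 29.9% for HDN against Naive, and 27.4% and 26.8% for LDN against Naive. Of 6 such genes, 4 were higher in LDN than in HDN and 0 lower, 2 were higher and 3 lower in HDN than in Naive, and 3 were higher and 0 lower in LDN than in Naive. Slc25a4, an exchanger of ADP and ATP, averaged 3.38 ± 1.21 CPM in LDN, 0.377 ± 0.147 CPM in HDN and 1.31 ± 0.602 CPM in Naive neutrophils (SD, n = 4 each), higher in LDN than in HDN (3.14 ± 0.41 on the log2 scale, edgeR adjusted p = 5.01e-05). Its paralog Slc25a5 averaged 176 ± 18.3 CPM in LDN, 192 ± 28.5 CPM in HDN and 120.5 ± 2.18 CPM in Naive neutrophils (SD, n = 4 each) and was not called in LDN against HDN (log2 fold change -0.12 ± 0.12, edgeR adjusted p = 0.423). Vdac1, a pore of the outer mitochondrial membrane, averaged 77.8 ± 7.60 CPM in LDN, 38.3 ± 5.29 CPM in HDN and 88.2 ± 5.60 CPM in Naive neutrophils (SD, n = 4 each).

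Against the same shares, of 9 tested regulators of respiratory genes, 1 was higher and 1 lower in LDN against HDN, 3 were higher and 1 lower in HDN against Naive, and 5 were higher and 2 lower in LDN against Naive. Ppargc1b, a coactivator of these genes, averaged 0.666 ± 0.228 CPM in LDN, 0.169 ± 0.148 CPM in HDN and 0.0916 ± 0.0673 CPM in Naive neutrophils (SD, n = 4 each), and was the one counted as higher in LDN than in HDN and among the 5 in LDN against Naive. It passed the low-count filter through 3 LDN libraries and 1 HDN library, with HDN and Naive means near or under the floor of 3 reads, so no fold change or test is given. Tfb1m, counted as lower in both comparisons with Naive, passed only with its Naive libraries. Polrmt, the mitochondrial RNA polymerase, was lower in LDN than in HDN (log2 fold change -0.97 ± 0.37, edgeR adjusted p = 0.0425). Ppargc1a had no read in any library. Nrf1 was not called in LDN against HDN (log2 fold change -0.19 ± 0.12, edgeR adjusted p = 0.206), and nor were Gabpa or Yy1.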
